A study of Saccharomyces cerevisiae with 28 samples.

Results

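LARP sites on the rRNA locus of budding yeast were taken from the PAR-CLIP clusters of Slf1 and Sro9. A cluster was a member when it held at least 5 reads and at least 2 T-C conversions and was 11 to 100 nt long. Its mode also had to lie on chromosome XII between 451000 and 490500 (sacCer3). The mode is the position where signal was the highest fraction of signal plus background, and it need not be a converted base. Of the 34687 clusters that met the limits on reads, conversions and length in 8 libraries, 374 were on this locus (1.08%), with 97190 of 4622119 reads (2.10%). The groups were Slf1-TAP cells given 0.4 mM H2O2 for 15 min, untreated Slf1-TAP cells, Sro9-TAP cells given the same H2O2, and untreated Sro9-TAP cells, with 2 libraries each. The tagged strains derived from BY4741 and carried the TAP tag at the C terminus of the protein, at its own locus and under its own promoter. No library of an untagged strain was analysed here as a PAR-CLIP background, so the level of reads that would be recovered without a tagged protein was not known. Counts of total RNA from wild type, sro9 deletion and slf1 deletion cells, each with and without H2O2 (12 libraries, 2 in each group), are used at one place below.

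Slf1 and Sro9 are La-related proteins (LARPs), RNA-binding proteins that share a La motif and associate with translating ribosomes. Ribosomal RNA is made from a tandem gene array, in which RNA polymerase I transcribes a 35S precursor that is cut into 18S, 5.8S and 25S rRNA, and RNA polymerase III transcribes 5S rRNA from the other strand. The external spacers (ETS1, ETS2) and internal spacers (ITS1, ITS2) are removed from the precursor during ribosome assembly, and the non-transcribed spacers (NTS) lie between the transcribed units. In PAR-CLIP, 4-thiouridine in the RNA is crosslinked to the bound protein, and sequencing then shows a T-C conversion at crosslinked positions.

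The reference genome holds 2 copies of the 35S unit, RDN37-1 at chrXII:451575-458432 and RDN37-2 at chrXII:460712-467569, both on the minus strand, and 6 copies of 5S. Copy 1 and copy 2 were identical over 8101 nt, from the 3′ end of the 35S unit to the 5S gene, so a read from one could not be told from a read of the other. A further stretch at chrXII:489753-490500 was a partial copy of the 3′ end of 25S, with 8 mismatches in 748 nt. Below, positions in the rRNAs are counted from the 5′ end of each rRNA in copy 1, and copies are folded onto it.

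The sequences at the places described below are shown first, since most of the reads on the locus came from them. They are RefSeq sequence of the R64 assembly, 5′ to 3′ in the strand of the cluster, and in the first 8 the capitals mark T, the base at which a conversion can be read.

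25S 3′ end, chrXII:451786-451815 (minus): cTgagaTTaagccTTTgTTgTcTgaTTTgT

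25S 3′ cluster, its 5′ part, chrXII:489802-489831 (minus): TacaacggggTaTTgTaagcagTagagTag

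ETS1 site, chrXII:457832-457861 (minus): TTTTcTggaaTTTcagcTgTTTccaaacTc

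ITS1 site, chrXII:464804-464833 (minus): gcaacTTTTTcTTTgggcaTTcgagcaaTc

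ITS2 site, chrXII:464424-464453 (minus): TTcTcTgcgTgcTTgaggTaTaaTgcaagT

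5S site, chrXII:485763-485792 (plus): gccTgaccgagTagTgTagTgggTgaccaT

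Antisense site, chrXII:462218-462247 (plus): gTTgaTcgTTaaTTgTagcaagcgacggTc

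Site beside the partial 25S copy, chrXII:489660-489673 (minus): cTgTcTggcgggcg

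At the junction of ETS1 and 18S, chrXII:457718-457747 (minus), the capitals mark mature 18S and the lower case letters the end of ETS1: ttcttttaagatagtTATCTGGTTGATCCT

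The members were few in Slf1 libraries and more numerous in Sro9 libraries. There were 23 and 14 in Slf1 H2O2, 10 and 23 in Slf1 untreated, 72 and 61 in Sro9 H2O2, and 71 and 100 in Sro9 untreated. The Sro9 libraries also had more clusters over the whole genome, with 709 to 1825 in Slf1 libraries and 6505 to 9022 in Sro9 libraries. As a share of each library's clusters, members made up 1.58% and 1.97% in Slf1 H2O2, 0.965% and 1.26% in Slf1 untreated, 0.798% and 0.825% in Sro9 H2O2, and 1.05% and 1.54% in Sro9 untreated. The 4 Slf1 libraries averaged 1.44% ± 0.43 and the 4 Sro9 libraries 1.05% ± 0.34 (SD), a difference that did not pass an exact two-sided permutation test over 4 against 4 libraries (p = 0.229, Benjamini-Hochberg adjusted p = 0.75 over 7 shares).

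By reads, the locus held 1.73% and 4.56% of the reads in Slf1 H2O2, 0.969% and 3.86% in Slf1 untreated, 1.502% and 1.32% in Sro9 H2O2, and 2.13% and 2.34% in Sro9 untreated. The replicates of Slf1 lay further apart than the LARPs did. The widest 95% Wilson interval was 4.49% to 4.63%, which covers counting error only. The means were 2.78% ± 1.71 in Slf1 and 1.82% ± 0.49 in Sro9 libraries (SD, n = 4 each), and the difference of 0.955 percentage points was within the spread of the libraries (exact permutation p = 0.371, adjusted p = 0.75). With 2 libraries in each group, an exact test of H2O2 against untreated cells cannot go below p = 0.333, so none was run.

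These members were a small remainder of what the libraries held on the locus. With no limit on length, the locus held 61.2% and 80.7% of all cluster reads in Slf1 H2O2, 60.2% and 68.9% in Slf1 untreated, 62.6% and 67.4% in Sro9 H2O2, and 70.1% and 48.8% in Sro9 untreated. Clusters over 100 nt, 25 to 36 in a library, took 98.4% to 99.5% of the locus reads, and the longest was 3130 nt. Elsewhere in the genome, such long clusters took 2.44% to 15.4% of the reads in Slf1 libraries and 23.4% to 35.3% in Sro9 libraries. Near the limit of 100 nt, 16 clusters of 91 to 100 nt were members, with 41 to 4888 reads, and 13 clusters of 101 to 110 nt were not, with 31 to 8696 reads.

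**Figure D1:**
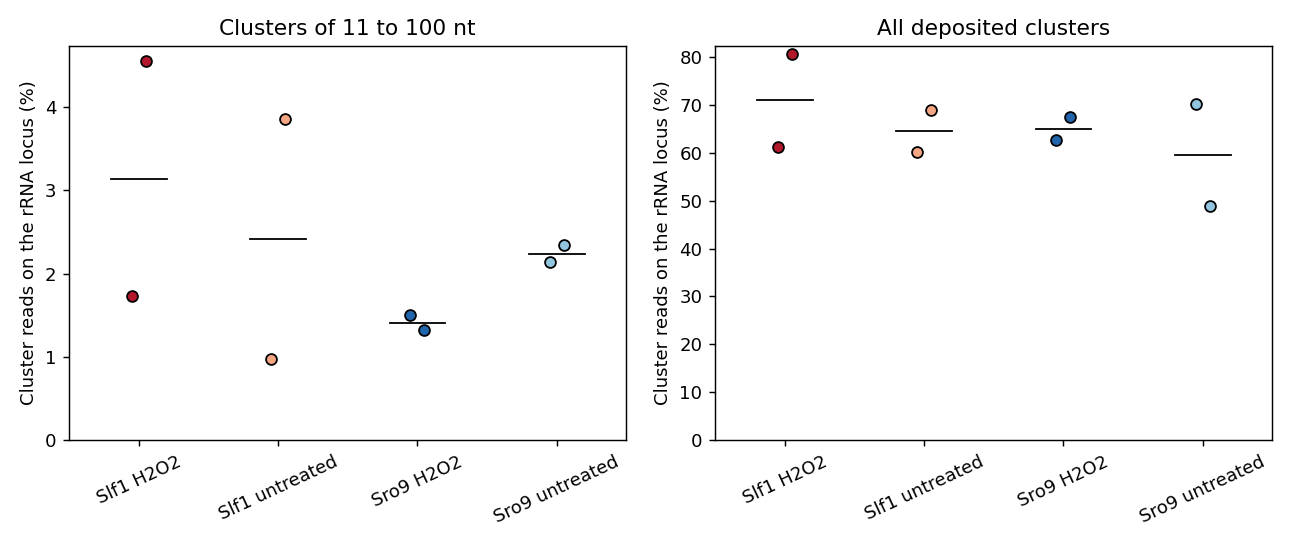
Share of cluster reads on the rRNA locus (%), for clusters of 11 to 100 nt on the left and for all deposited clusters on the right. Each point is a library and each line the mean of 2; the Slf1 replicates were 0.969% and 3.86% in untreated cells on the left, while on the right all libraries lay between 48.8% and 80.7%.

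No member had its mode in mature 18S or 5.8S rRNA, the RNA of the small subunit and the short RNA paired with 25S, in any of the 8 libraries. Both RNAs were covered by long clusters instead. In copy 1 these covered 89.3% to 100% of 18S and all of 5.8S. Each long cluster counts whole for the region of its mode. With no length limit, 18S held 27.5% and 29.2% of the locus reads in Slf1 H2O2, 26.5% and 25.7% in Slf1 untreated, 8.79% and 18.5% in Sro9 H2O2, and 26.9% and 23.8% in Sro9 untreated. In Sro9 H2O2, long clusters with a mode in ITS1, such as chrXII:455660-456941 in replicate 1, also covered much of 18S, and ITS1 held 14.7% and 5.38% of the locus reads there. For the same reason 5.8S was at 0 in 3 libraries in which long clusters covered it. The difference in 18S between LARPs (27.2% ± 1.53 in Slf1, 19.5% ± 7.95 in Sro9, SD, n = 4 each) did not pass the exact permutation test (p = 0.0857, adjusted p = 0.3).

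Members in 25S, the large RNA of the large subunit, were 14 clusters, but they held 60553 reads. They made up 90.1% and 92.01% of the members' reads in Slf1 H2O2, 85.3% and 29.3% in Slf1 untreated, 33.9% and 87.4% in Sro9 H2O2, and 76.8% and 25.1% in Sro9 untreated. The 25S share averaged 74.2% ± 30.04 in Slf1 and 55.8% ± 30.9 in Sro9 libraries (SD, n = 4 each; exact permutation p = 0.314, adjusted p = 0.75). In each group but Slf1 H2O2, the share differed by more than 2 times between replicates. Most of it lay in the partial copy. With that copy not counted as 25S, an alternative chosen after seeing the data, the share was 31.02% in Slf1 H2O2 replicate 2, 7.26% in Sro9 untreated replicate 2 and 0 in the other 6 libraries, a difference between LARPs of 5.94 in place of 18.4 percentage points.

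**Figure D2:**
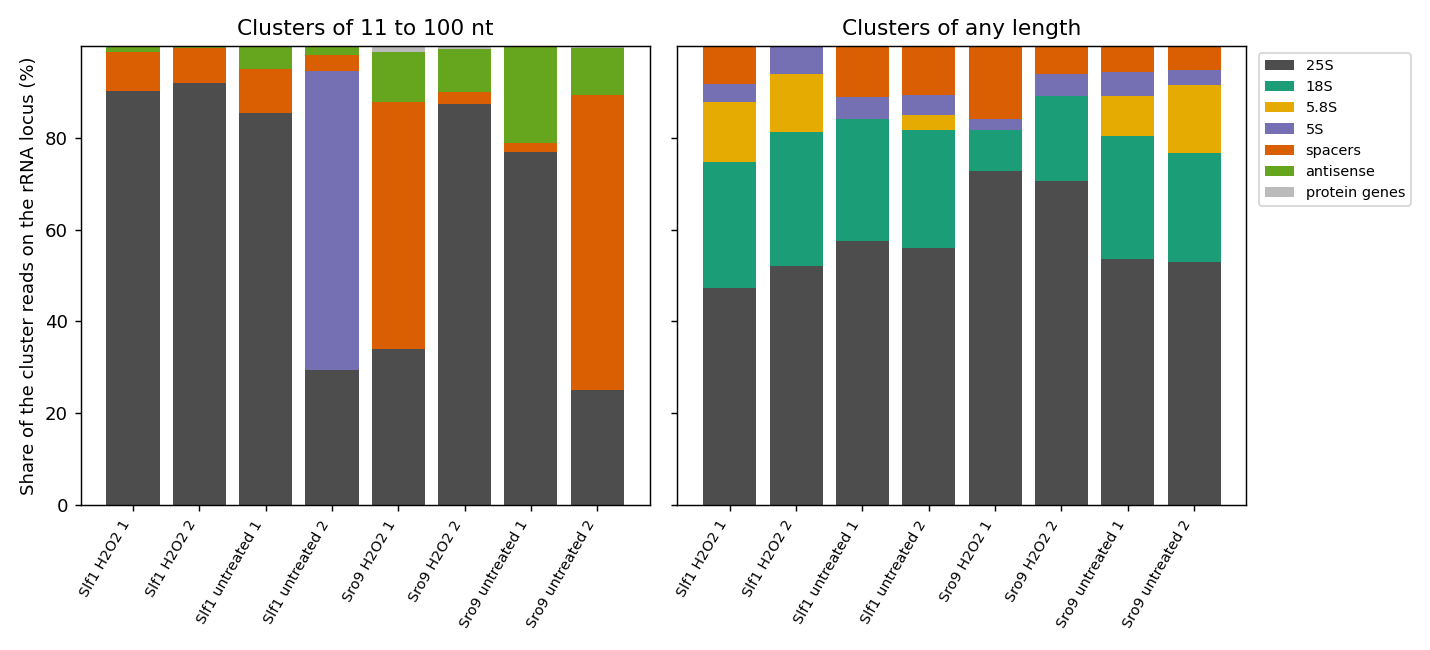
Share of the cluster reads on the rRNA locus (%) by region in each library, for clusters of 11 to 100 nt on the left and of any length, up to 3130 nt, on the right; each cluster counts whole for the region of its mode. On the left 25S led in 5 libraries, 5S in Slf1 untreated replicate 2 and spacers in 2 Sro9 libraries, and 18S and 5.8S were at 0; on the right 25S held 47.2% to 72.8% in every library.

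The one place with a member in every library was the 3′ end of 25S in the partial copy, which began at chrXII:489753 or 489754 and was 78 to 93 nt long. It held 5190 and 9609 reads in Slf1 H2O2, 3507 and 3851 in Slf1 untreated, 3457 and 8072 in Sro9 H2O2, and 14541 and 2838 in Sro9 untreated. These were 55.2% and 60.99%, 85.3% and 29.1%, 33.9% and 87.4%, and 76.5% and 17.4% of the members' reads in the same libraries. The groups overlapped, and the Sro9 untreated replicates differed most. In 5 of the 8 libraries the cluster ended at 489831 to 489835, before the first base at which the partial copy differs from 25S (position 3314 of 25S). Over that stretch the reads fit the 25S gene of copies 1 and 2 as well, where the same bases were inside long clusters of 30431 to 82214 reads in Slf1 libraries and 83850 to 169583 in Sro9 libraries, so the reads cannot be assigned to the partial copy.

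The cluster carried few conversions. There were 5.49 and 4.39 conversions per 100 reads in Slf1 H2O2, 9.07 and 10.9 in Slf1 untreated, 46.7 and 17.8 in Sro9 H2O2, and 15.4 and 28.4 in Sro9 untreated. All 4 Slf1 values were below all 4 Sro9 values. Its mode fell at 489776 or 489777 in 3 libraries and at 489829 to 489834 in the other 5, so that sites made from modes split it into a pair of sites. The modes at 489776 and 489777 lie outside the printed 5′ part of the cluster but, folded onto copy 1, inside the printed 25S 3′ end. Those at 489832 (Sro9 H2O2 replicate 1) and 489834 (Slf1 untreated replicate 1) lie just past the printed 5′ part.

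Other members in 25S were in single libraries or low. A cluster at chrXII:490402-490473, in the partial copy, held 3274 reads in Slf1 H2O2 replicate 1, and one at chrXII:461563-461661 held 4888 reads in Slf1 H2O2 replicate 2. A cluster at chrXII:454123-454199, with its mode at position 1015 of 25S, held 1183 reads in Sro9 untreated replicate 2. A site at position 3261 of 25S had 25 reads in Slf1 untreated replicate 2, and 56 and 62 reads in Sro9 untreated. This site, at chrXII:489878-489906 in the partial copy, spans bases at which that copy differs from 25S (positions 3262, 3267 and 3270). It had no member in the H2O2 libraries of either LARP. Long clusters of copies 1 and 2 covered the folded position there, but reads that span these differences do not match copies 1 and 2 exactly. The edgeR quasi-likelihood p of this site for Slf1 H2O2 against untreated was 0.116 (adjusted p = 1).

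5S rRNA, the small RNA of the large subunit, had members in Slf1 untreated replicate 2 alone, a cluster of 98 nt in each of RDN5-2 and RDN5-5 with 4309 and 4310 reads. They took 65.2% of that library's member reads. The other libraries held 5S reads in 6 clusters each that were over the length limit, up to 129 nt, with 33829 to 84679 reads in the 3 other Slf1 libraries and 31932 to 139896 reads in Sro9 libraries. With no length limit the 5S share was 4.76% ± 0.81 in Slf1 and 3.98% ± 1.32 in Sro9 libraries (SD, n = 4 each; exact permutation p = 0.371, adjusted p = 0.65).

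Among the members in spacers, those in ETS1, the leader of the precursor, had the most reads, 16955. Of these, 14817 were in clusters at the junction of ETS1 and 18S, placed in ETS1 by their mode. At any length, ETS1 held 80774 reads, ITS1 518299 and ITS2 203612. The cluster at the junction of ETS1 and 18S, chrXII:457715-457751, was a member in Sro9 H2O2 replicate 1 (5012 reads) and, in both copies, in Sro9 untreated replicate 2 (9805 reads). It was 49.2% and 60.2% of the members' reads there. It had 14.1 and 2.58 conversions per 100 reads in these libraries, and its bases from 457715 to 457732 are mature 18S. In the other libraries, long clusters spanned the junction in Slf1 untreated replicate 2 and Sro9 H2O2 replicate 2, and ended at the first base of mature 18S in both Slf1 H2O2 libraries and Sro9 untreated replicate 1. In Slf1 untreated replicate 1 no cluster reached it. A second ETS1 site, at position 595 of ETS1, was seen in both LARPs. Clusters that overlapped it held 82 and 92 reads in Slf1 H2O2, 73 reads in Slf1 untreated replicate 1, 306 reads in Sro9 H2O2 replicate 1, and 285 reads in Sro9 untreated replicate 2. In the other 3 libraries it was inside clusters of up to 591 nt.

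ITS2, which separates 5.8S from 25S, had members in every Slf1 library, with 132 and 188 reads in Slf1 H2O2 and 131 and 176 in Slf1 untreated, and in no Sro9 library. Long clusters that overlapped ITS2 held 86230 to 306387 reads in Slf1 libraries and 147647 to 1128800 reads in Sro9 libraries. ETS2, at the 3′ end of the precursor, had no member in the Slf1 libraries, which had fewer clusters over the whole genome, and held 7 and 34 reads in Sro9 H2O2 and 97 and 36 in Sro9 untreated. ITS1, between 18S and 5.8S, had members in 3 Slf1 libraries (188 to 218 reads) and 3 Sro9 libraries (19 to 41 reads). Spacers together held 7.36% ± 2.70 of member reads in Slf1 and 30.7% ± 33.0 in Sro9 libraries (SD, n = 4 each; exact permutation p = 0.429, adjusted p = 0.75), and the 2 Sro9 libraries with the junction cluster had the highest shares.

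**Figure D3:**
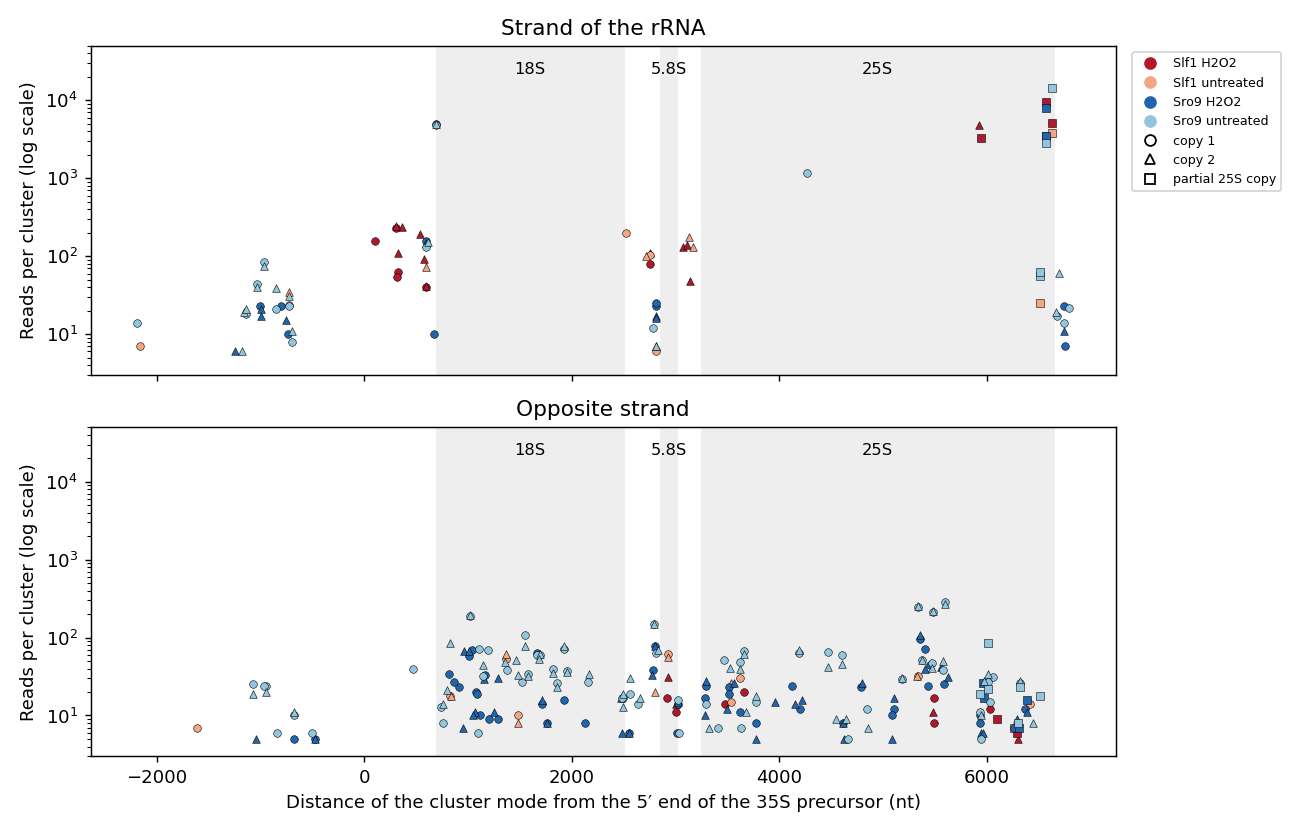
Reads per member cluster (log scale) against the distance of its mode from the 5′ end of the 35S precursor (nt), on the strand of the rRNA above and on the opposite strand below; colours are groups, symbols copies, and grey bands the mature rRNAs. By mode, members on the rRNA strand lay in spacers and in 25S, where most of the reads were at its 3′ end. No such mode lay in 18S or 5.8S, though the cluster at the junction of ETS1 and 18S also covers bases of 18S. Members on the opposite strand were spread over 18S and 25S at low reads.

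Most members lay on the strand opposite the rRNA. There were 231 such clusters (61.8% of members), with 8252 reads. They were 47.8% and 14.3% of the members in Slf1 H2O2, 60% and 43.5% in Slf1 untreated, 62.5% and 65.6% in Sro9 H2O2, and 73.2% and 65% in Sro9 untreated, so the pooled share is weighted by the larger Sro9 libraries. They were 11 and 2 clusters in Slf1 H2O2, 6 and 10 in Slf1 untreated, 45 and 40 in Sro9 H2O2, and 52 and 65 in Sro9 untreated. Against reads on the rRNA strand of the 35S unit, counted at any length, antisense reads were 1.53 and 0.351 per 10000 in Slf1 H2O2, 3.09 and 4.17 in Slf1 untreated, 12.6 and 8.29 in Sro9 H2O2, and 20.7 and 23.7 in Sro9 untreated. All Slf1 values lay below all Sro9 values, and within each LARP both H2O2 values lay below both untreated values. These ratios were computed after seeing the data and were not tested, and Slf1 libraries had fewer cluster reads in all (1148702 to 1799902, against 2053612 to 3823202 in Sro9). They include antisense reads opposite 5S, though 5S reads are not in the divisor. Members opposite 5S were 2 and 0 in Sro9 H2O2, 5 and 7 in Sro9 untreated, and 0 in each Slf1 library.

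The antisense members had 27.6 to 66.1 conversions per 100 reads. They lay mostly opposite 25S (8 and 1 in Slf1 H2O2, 3 and 4 in Slf1 untreated, 26 and 20 in Sro9 H2O2, 25 and 30 in Sro9 untreated) and opposite 18S (0 and 0, 3 and 3, 13 and 15, and 18 and 21 in the same order). TAR1, a gene nested in 25S on the opposite strand, had 12 member clusters in copy 1 (chrXII:454696-455070), with 314 reads. The antisense site with the most reads, opposite position 2086 of 25S, had 64 reads in Slf1 untreated replicate 1 and 498 in Sro9 untreated replicate 1, and none in the other 6 libraries. Sites were joined by mode, and sites with other modes overlapped this place. At chrXII:462188-462248, inside its span, there were 205 reads in Sro9 H2O2 replicate 1. Folded onto it, chrXII:453055-453116 had 102 reads in Sro9 untreated replicate 2. A site at chrXII:453012-453102, which overlaps it in part when folded, had 39 and 71 reads in Sro9 H2O2.

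**Figure D4:**
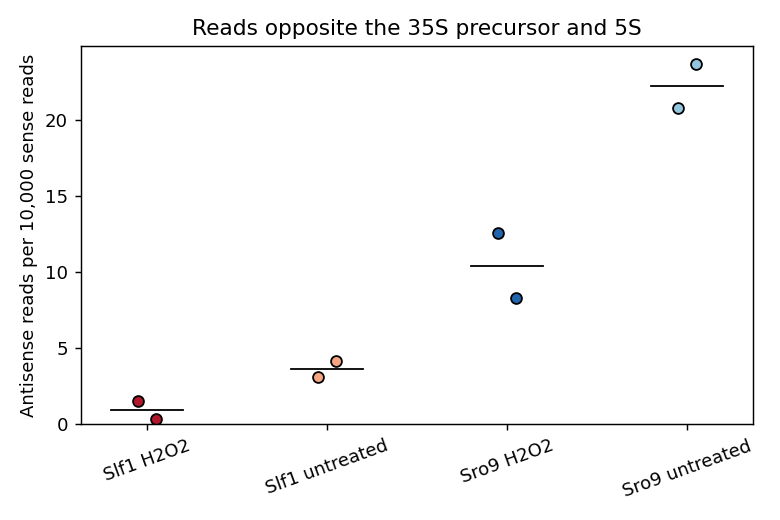
Antisense reads per 10000 reads on the rRNA strand, for each library (points) with the mean of 2 (lines). The means were 0.94 in Slf1 H2O2, 3.63 in Slf1 untreated, 10.4 in Sro9 H2O2 and 22.2 in Sro9 untreated, and no points of neighbouring groups overlapped.

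Agreement of replicates differed between groups. In Slf1 H2O2, 52.2% of the members of replicate 1 overlapped one of replicate 2 and 71.4% in reverse, against 29.8% and 61.7% for other clusters. In Slf1 untreated the shares were 30% and 13.0%, against 56.8% and 32.2%. In Sro9 H2O2 they were 51.4% and 55.7%, against 47.7% and 58.8%, and in Sro9 untreated 73.2% and 55.0%, against 48.6% and 49.7%. Slf1 untreated was the lowest group on the locus, where 10 and 23 clusters shared 3. Joined by modes less than 10 nt apart, the members made 209 sites. Of these, 153 were in 1 library, 39 in 2, 11 in 3, 5 in 4 and 1 in 5 libraries. Both replicates had 2 of 29 sites (6.90%) in Slf1 H2O2, 0 of 25 in Slf1 untreated, 14 of 97 (14.4%) in Sro9 H2O2 and 8 of 114 (7.02%) in Sro9 untreated, against 13.9% to 15.99% of other sites.

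Reads of the 2 copies were near even, with 49.7% to 50.5% in copy 1 over clusters of any length. Among members, 107 of the 153 clusters in copy 1 overlapped a member in copy 2 and 62 had the same ends in both. Of the rest, 14 were matched by a long cluster and 32 by no cluster.

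A test of sites across the genome, with edgeR's quasi-likelihood fit on the 6734 sites seen in at least 2 libraries, 56 of them on the locus, called no site after Benjamini-Hochberg adjustment in any of the 4 contrasts (percent called 0 in each). In simulated data with a fixed spread between replicates, 95.6% of 16-fold changes but 23.6% of 4-fold changes were recovered in Slf1 H2O2 against untreated. There were 6733 simulated sites, with changes placed at a mean of at least 20 reads. The spread was not estimated from these libraries, in which a locus site could have 5190 reads in Slf1 H2O2 replicate 1 and 0 in replicate 2. The recovered shares therefore do not give the power at the locus sites. Before adjustment, edgeR p was under 0.05 at 0 of 56 locus sites in Slf1 H2O2 against untreated and 2 in Sro9 H2O2 against untreated. It was so at 1 in Slf1 against Sro9 untreated and 3 in Slf1 against Sro9 after H2O2. Over all 6734 sites the counts were 51, 646, 362 and 626 in that order, a larger share than on the locus in each contrast. DESeq2 called 1, 1, 1 and 2 locus sites in that order (percent called 0.609, 0.653, 0.936 and 0.995 of all sites). Without the filter, edgeR called 1 locus site in each contrast (percent called 0.00429, 0.00857, 0.00429 and 0.00857). With the replicate number within a strain as a block, it called 0 in Slf1 H2O2 against untreated (percent called 0.0891) and 1 in Sro9 H2O2 against untreated (percent called 0.0594).

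The site with the smallest p on the locus in Slf1 H2O2 against untreated lay beside the partial 25S copy at chrXII:489660-489673, opposite YLR162W. It had 21 and 5 reads in Slf1 H2O2, 0 and 0 in Slf1 untreated, 5 and 58 in Sro9 H2O2, and 0 and 0 in Sro9 untreated. With sites joined by mode, it was seen in all 4 H2O2 libraries and in no untreated library. This pattern was searched for after its values were seen, and 1 of the 6734 sites showed it (0.0149%). A cluster at chrXII:489660-489674, which covers the whole site, had 5 reads in Sro9 untreated replicate 1. Its mode at 489674 made it a separate site, so the place was not free of reads in untreated cells. The counts were low, and edgeR called the site at chrXII:489660-489673 in neither LARP (adjusted p = 1 for Slf1 and 0.336 for Sro9). By mode, other Sro9 sites had reads after H2O2 alone, with 21 and 17 reads at chrXII:468542-468576 in the spacer (edgeR adjusted p = 0.336), and 11 and 5 reads in ASP3-2. Sites with other modes overlapped both places in untreated cells. At the spacer place, folded onto copy 1, these had 159 reads in Sro9 untreated replicate 1 and 84 in replicate 2. In ASP3-2 the overlapping site had 5 reads in Sro9 untreated replicate 2.

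Between LARPs, the sites with the smallest p had no reads in Slf1. Low Slf1 reads were general, with a median log2 fold change of Slf1 against Sro9 over all 6734 sites of -4.89 in untreated cells and -5.70 after H2O2. On the locus these medians were -4.58 and -4.63. A site in ASP3-4, one of 4 copies of the gene for a cell-wall L-asparaginase, had 14 and 22 reads in Sro9 H2O2 and 13 and 7 in Sro9 untreated (edgeR adjusted p = 0.315 after H2O2 and 0.386 untreated). The ASP3 copies were not folded. About as far into ASP3-1, ASP3-2 and ASP3-3, sites with modes at chrXII:469433, 473085 and 482665 also had reads in Sro9 libraries alone. Whether the reads came from ASP3-4 was not tested. A site opposite position 2682 of 25S had 10 and 8 reads in Sro9 H2O2, and 11 and 19 in Sro9 untreated (adjusted p = 0.315 and 0.386). One opposite position 996 of 18S had 121 and 53 reads in Sro9 untreated, and no reads were joined to it elsewhere (edgeR adjusted p = 0.386). Overlapping sites with other modes had 30 and 63 reads in Sro9 H2O2 replicate 2. An ITS1 site at position 309 had 13 reads in Slf1 untreated replicate 2, 40 and 41 in Sro9 H2O2, and 7 in Sro9 untreated replicate 2.

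Compared with other clusters of the same libraries, the members had fewer conversions per read. They had 9.42 and 6.43 conversions per 100 reads in Slf1 H2O2, 14.2 and 13.9 in Slf1 untreated, 31.4 and 22.4 in Sro9 H2O2, and 20.7 and 16.8 in Sro9 untreated, against 87.8 to 95.2 in other clusters. The difference of -74.6 was lower in 8 of 8 libraries (exact sign-flip test, p = 0.0078, the smallest that 8 pairs allow, adjusted p = 0.0104 over 4 measures). The value is weighted by the large clusters. The median over members, 24.7 to 64.3, was also below that of other clusters, 80.0 to 93.8.

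Members were longer, with a median of 37.0 to 65.5 nt against 27 to 34 nt, longer in 8 of 8 libraries (mean difference 20.8 nt, exact sign-flip p = 0.0078, adjusted p = 0.0104). They held more reads, with medians of 14.5 to 116 against 12 to 30, higher in 8 of 8 libraries (mean difference 21.4 reads, same p). The difference was 12.2 reads without Slf1 H2O2 replicate 2. RNase T1 cuts after G, and 30.4% to 60% of members ended in G or were followed by G, against 25.7% to 45.5% of other clusters, higher in 7 of 8 libraries (9.63 percentage points, exact sign-flip p = 0.0312, adjusted p = 0.0312). This call was lost on leaving out any of 5 libraries (adjusted p = 0.0625). Without the antisense members, an alternative chosen after seeing the data, conversions stayed lower in 8 of 8 libraries, and length was higher in 7 of 8 (15.8 nt, exact sign-flip test, adjusted p = 0.0469). Median reads were then higher in 7 of 8 (47.9 reads, exact sign-flip test, adjusted p = 0.0521) and the share with G in 5 of 8 (4.24 percentage points, exact sign-flip test, adjusted p = 0.312), and neither passed.

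**Figure D5:**
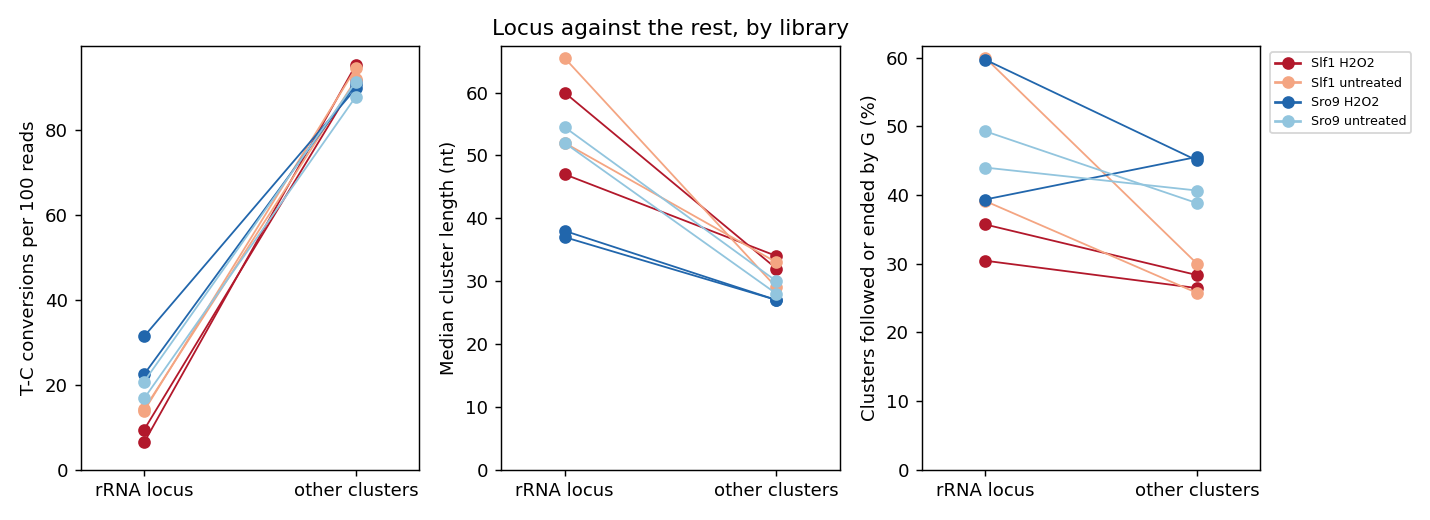
Conversions per 100 reads, median cluster length (nt) and share of clusters ended or followed by G (%), for clusters of the rRNA locus and other clusters, with a line for each of the 8 libraries. Conversions were lower and clusters longer on the locus in all 8 libraries, and the share with G was higher in 7.

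The long clusters repeated some modes across libraries. Their reads are those of whole clusters, which differed in length, and cannot be compared as reads at the mode. For the first mode below, the clusters were 478 nt long in Slf1 H2O2 replicate 1 and 2669 nt in Sro9 H2O2 replicate 1. Position 1504 of 25S was the mode in 6 libraries, with 81459 reads in Slf1 H2O2 replicate 1, 170622 and 92836 in Slf1 untreated, 845390 in Sro9 H2O2 replicate 1, and 959737 and 357203 in Sro9 untreated. Position 3145 of 25S and position 493 of ETS1 were also the mode in 6 libraries, and 18S position 1196 in 4, with 1195 in the 2 other Slf1 libraries. Position 839 of 25S was the mode in 3 Slf1 libraries (53285, 306184 and 20451 reads) and no Sro9 library, and position 10 of 5S in 4 Sro9 libraries (31932 to 139896 reads) and no Slf1 library. The repeated modes of 25S at 1504 and 3145 and of ETS1 at 493 fell on A, C and A, where no T-C conversion can be read. They are shown with the mode in capitals:

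25S around position 1504: ttccacgtcaAcagcagttgg

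25S around position 3145: tgctagaacgCggtgatttct

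ETS1 around position 493: tggtatggtgAcggagtgcgc

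Nuclear tRNA genes, which like 5S are transcribed by RNA polymerase III, held 5.86% to 15.9% of the kept reads, and long clusters took at most 2.42% of the tRNA reads. The mitochondrial rRNA genes 15S_RRNA and 21S_RRNA held 0.00273% to 0.304% of kept reads. In total RNA of 12 untagged libraries, which had been depleted of rRNA, all 8 features of the 35S unit were listed at 0. No level of the 35S rRNAs could therefore be set beside the clusters. The 6 features of 5S held 367 to 13317 counts, which remain after the depletion. TAR1 held 36.5% and 0.629% of the counts in the H2O2 libraries of the slf1 deletion, which were the highest and the lowest values, and where the counting took no account of strand its reads cannot be told apart from those of 25S.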

How the data were processed

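Crosslinked RNA bound to TAP-tagged Slf1 or Sro9 was sequenced. Per the labels and the methods of the study, the authors trimmed reads with Trim Galore, mapped them with Bowtie 1.2.0 to R64 (sacCer3) with at most 2 mismatches and up to 10 genomic places, and used PARalyzer to group the reads of a library into clusters. The deposited files give the count of reads and conversions of each cluster, and a mode score that is a fraction. The deposited total RNA files give counts per gene (featureCounts). Total RNA of the 8 tagged libraries was not used, as file names and labels disagreed. Every one of 36054 cluster sequences equalled the reference at its coordinates.

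The members and lists were chosen with earlier results of these data known. Members were placed by mode, and sites joined modes less than 10 nt apart over folded copies. Named sites were the 3 with the highest mean share of locus reads in each group, the 3 with the smallest p in each contrast, and the 3 spacer or antisense sites with most reads. Other items that were named were chosen after their values were seen.

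Shares were compared by exact permutation (4 against 4, smallest p = 0.0286) and locus against other clusters by exact sign flips over 8 libraries. Sites in at least 2 libraries were fitted with edgeR 4.0.16 (R 4.3.3), scaled to kept reads, over 4 groups without a block. DESeq2 1.42.0 was an alternative. Fits were tested on simulated data, with a spread that was set and not estimated from the libraries. Kept reads were 342238 to 890669 per library, and intervals cover counting error only. The labels describe a culture divided between treatments and the methods duplicate cultures for each condition, so whether replicate numbers pair the libraries was not settled. Same-numbered libraries did not deviate together (r = -0.05 in Slf1 and -0.02 in Sro9, over 1042 sites).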

Additional observations from a re-analysis of the deposited data

Results flagged for a closer look

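The share of members among all clusters moved in opposite directions after H2O2. In Slf1 both H2O2 libraries (1.58% and 1.97%) were above both untreated ones (0.965% and 1.26%), a difference of 0.664 percentage points. In Sro9 both H2O2 libraries (0.798% and 0.825%) were below both untreated ones (1.05% and 1.54%), a difference of -0.484. The difference between LARPs was not tested. In Slf1 the groups overlapped with no length limit (3.70% and 5.21% in H2O2, 4.23% and 2.83% in untreated cells) and with copy 1 alone (0.762% and 0.287% in H2O2, 0.292% and 0.607% in untreated cells).

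Clusters over the length limit, which the comparisons of members leave out, held 10919643 reads of the locus over the 8 libraries, with no PAR-CLIP control library to set beside them.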

How the results depend on the processing

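No share comparison passed its threshold under any alternative, copies taken singly, other limits and the count of the partial 25S copy (chosen after seeing the data) included. The smallest adjusted p, 0.2 (exact permutation p = 0.0286), was reached by the share of clusters with no length limit (2.55 percentage points) and by the share of reads in copy 1 alone (-0.475, against 0.955 for all copies). Leaving out a library gave 0.362 to 1.56 percentage points for the share of reads and 8.12 to 33.3 for 25S. The difference in median reads was 27.5 with at least 20 reads per cluster, which no longer passed (adjusted p = 0.0859), and -56.1 against other clusters with at least the median reads of members, which by construction are higher. It was 12.2 to 24.3 with a library left out, and 47.9 without antisense clusters (added after seeing the data), which did not pass (adjusted p = 0.0521). The share with G was 4.24 percentage points without them (adjusted p = 0.312). It was 5.81 percentage points with no length limit (adjusted p = 0.0781), and 6.72 to 11.9 with a library left out.

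Of locus sites, edgeR without a filter called 1 in each contrast, each on the reads of 1 library. DESeq2 called 1 in Slf1 H2O2 against untreated, 1 in Sro9 H2O2 against untreated, 1 in Slf1 against Sro9 untreated and 2 in Slf1 against Sro9 after H2O2. With the replicate block, 1 was called in Sro9 H2O2 against untreated and 0 in Slf1. That site is one of the pair into which shifts of the mode split the 25S 3′ cluster, and joining sites by overlap, an alternative added after seeing the data, called 0 in every contrast. Leaving out any library called 0 locus sites.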
